A study of Mus musculus with 2 samples.

Results

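The nuclei described here are muscle fibre nuclei of the mouse tibialis anterior (the large shin muscle) in which transcripts of the fast myosins Myh1 or Myh2 matched or outnumbered those of Myh4. They were chosen by measured transcript counts, given as unique molecular identifiers (UMIs, 1 per captured RNA molecule). A barcode needed 2000 UMIs, at most 5% mitochondrial UMIs, at least 1% of UMIs in Ttn, Neb, Trdn and Dmd together, Myh3 under 0.1% and at most 1 UMI of Ptprc, Pdgfra and Pax7 together. It also needed at least 2 UMIs of Myh1 and Myh2 together and at least as many as of Myh4. The rule found 459 nuclei, 242 in the AHRfl/fl library and 217 in the AHRmKO library, of 23616 barcodes that passed the UMI and mitochondrial limits. Values of the genes in this rule are given below as a description.

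Both libraries came from male mice, 16 to 20 weeks old, that had chronic kidney disease and whose femoral artery had been ligated 5 days earlier. Both carry the same strain label, AHRtm3.1Bra/J bred to Tg(ACTA1-cre/Esr1*)2Kesr/J, that is a floxed Ahr allele with a hormone-inducible Cre recombinase driven by the skeletal actin promoter. AHRfl/fl is the floxed group and AHRmKO the group in which Ahr is deleted in muscle fibres. Other cells of the muscle keep the gene under that promoter. There is no library from a healthy or unligated limb and no library of another genotype, and each group has 1 library. The labels give neither the number of animals behind a library nor which animals received an inducer. The series concerns the part of AHR in muscle damage under a blocked blood supply in kidney disease. With 1 library a group, no comparison between groups could be tested, and every interval below is at 95% and covers counting error only.

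Adult fast fibres of the mouse carry myosin heavy chain IIa (Myh2), IIx (Myh1) or IIb (Myh4), in order from the more oxidative to the more glycolytic fibre. After injury, new fibres pass through embryonic (Myh3) and perinatal (Myh8) myosin before an adult form takes over. AHR is a transcription factor that binds small molecules, among them tryptophan metabolites that build up in kidney failure, and it pairs with ARNT to act on genes such as Cyp1a1 and Cyp1b1.

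The myosin genes on which the rule turned lie side by side on chromosome 11. Their promoters are shown because the rule set Myh1 and Myh2 against Myh4, and that of Vegfa, the vascular growth factor, because its level differed widely between the libraries. The windows run over 300 bases at the annotated start, from RefSeq on GRCm38.p6: Myh1 at chr11:67199852-67200151 on the plus strand, Myh2 at chr11:67170777-67171076 on the plus strand, Myh4 at chr11:67237562-67237861 on the plus strand and Vegfa at chr17:46032328-46032627 on the minus strand. Capitals mark TATAAA on either strand.
Myh1: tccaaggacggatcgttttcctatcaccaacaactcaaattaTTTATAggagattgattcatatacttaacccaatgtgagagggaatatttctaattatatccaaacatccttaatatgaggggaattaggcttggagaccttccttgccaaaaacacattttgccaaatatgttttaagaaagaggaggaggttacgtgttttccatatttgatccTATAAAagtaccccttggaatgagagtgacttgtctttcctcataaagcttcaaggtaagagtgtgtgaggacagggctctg
Myh2: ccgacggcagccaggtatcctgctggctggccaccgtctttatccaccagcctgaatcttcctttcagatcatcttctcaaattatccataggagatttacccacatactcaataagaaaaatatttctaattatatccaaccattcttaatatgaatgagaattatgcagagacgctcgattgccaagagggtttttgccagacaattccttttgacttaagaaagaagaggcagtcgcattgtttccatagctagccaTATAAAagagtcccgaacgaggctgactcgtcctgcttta
Myh4: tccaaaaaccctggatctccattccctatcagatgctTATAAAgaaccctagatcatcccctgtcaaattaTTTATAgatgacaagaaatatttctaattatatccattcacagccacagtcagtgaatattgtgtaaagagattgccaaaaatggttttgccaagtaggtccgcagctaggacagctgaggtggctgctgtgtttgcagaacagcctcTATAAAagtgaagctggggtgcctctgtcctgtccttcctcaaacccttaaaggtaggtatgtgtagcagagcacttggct
Vegfa: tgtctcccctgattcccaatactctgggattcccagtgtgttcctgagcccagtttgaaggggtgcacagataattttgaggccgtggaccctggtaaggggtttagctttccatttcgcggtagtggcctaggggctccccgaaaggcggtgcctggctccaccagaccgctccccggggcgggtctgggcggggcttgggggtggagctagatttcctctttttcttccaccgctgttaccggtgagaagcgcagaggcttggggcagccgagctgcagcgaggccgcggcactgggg
TATAAA was matched 2 times in the Myh1 window, 1 time in that of Myh2 and 3 times in that of Myh4, and was present in 13.6% of all 32851 windows of that length. The E-box CANNTG, which myogenic factors can bind, was matched 3 times in the Myh4 window and had no match in those of Myh1 and Myh2, against 72.3% of all windows with a match. GCGTG, the core bound by AHR with ARNT, had no match in the 4 windows shown and 1 in a second RefSeq window of Vegfa at chr17:46025114-46025413. It was present in 32.4% of all windows. A match is a description of these letters only.

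The AHRfl/fl library held 151788328 UMIs and the AHRmKO library 113737134. Barcodes of 200 to under 500 UMIs, taken as free RNA, held 21.86% and 41.97% of them. The libraries shared 43 barcodes of 2000 or more UMIs, none of them a selected nucleus in both. The selected nuclei summed to 1331152 and 873839 UMIs, with medians of 4966 and 3380 UMIs and of 2353.5 and 1532 genes per nucleus. Mitochondrial genes took 0.856% and 1.94% of their UMIs. A single AHRmKO nucleus held 2389 haemoglobin UMIs of its 3980, and the next highest held 2.

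The rule's own genes differed in level between the libraries. CPM below means UMIs scaled to 1000000 UMIs of the same kind of nuclei. Myh1 stood at 1816 CPM in AHRfl/fl (95% Poisson interval 1745 to 1890) and 6114 in AHRmKO, and the median nucleus held 7 and 24 UMIs of Myh1 and Myh2 together. Ttn, the giant spring of the sarcomere, took a median of 1.59% and 5.38% of a nucleus's UMIs. Myh2 stood at 12.8 and 434 CPM, and at least 1 Myh2 UMI was found in 16 and 61 nuclei (6.61% and 28.1%). Among leukocyte barcodes, which should lack the gene, that share was 1.18% and 0.469%, at median depths of 3355 and 4066 UMIs. For Myh2 the free RNA level, at 15.6 CPM, was above that of the AHRfl/fl nuclei. In AHRfl/fl the nuclei were thus selected almost wholly by Myh1: none held more Myh2 than Myh1, against 16 in AHRmKO.

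Many AHRfl/fl nuclei sat close to the limits of the rule. Exactly 2 UMIs of Myh1 and Myh2 were found in 41 of the 242 AHRfl/fl nuclei and in 11 of the 217 AHRmKO nuclei, and 159 and 55 nuclei lay just outside with 1 such UMI and no more than 1 of Myh4. Myh1 and Myh2 equalled Myh4 in 9 and 1 nuclei, and 25 and 0 nuclei lay just outside with 1 UMI more of Myh4. Myh3 reached 0.05% to under 0.1% in 165 and 16 selected nuclei, and 542 and 48 nuclei lay just outside at 0.1% to under 0.2%. At least 1 Myh4 UMI was present in 64.9% and 24.4% of the selected nuclei. Leukocyte barcodes with at least 2 Myh1 or Myh2 UMIs made up 6.92% and 1.54%.

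**Figure D1:**
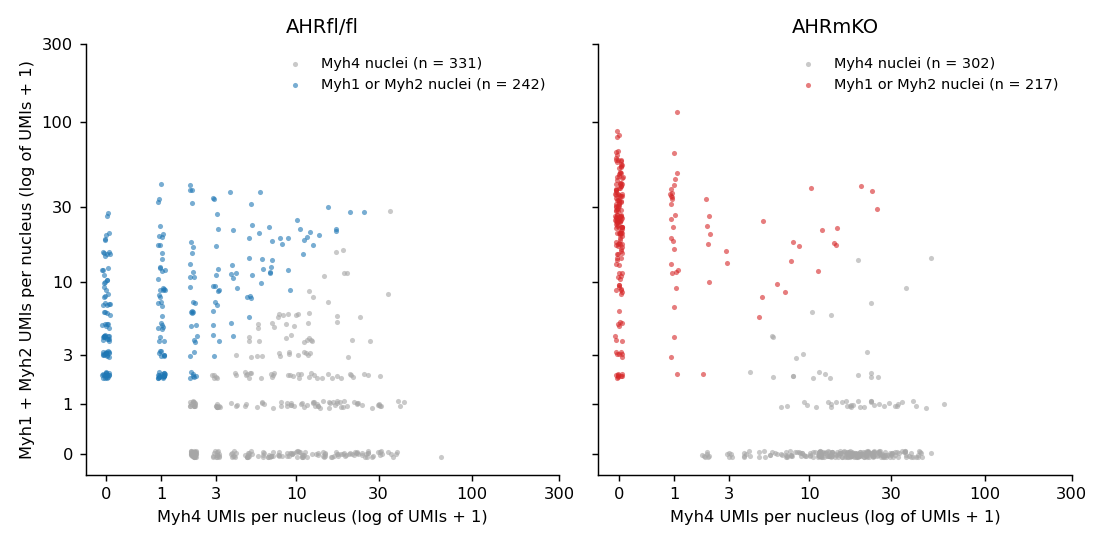
Myosin UMIs per nucleus in the 2 libraries, Myh4 on the horizontal axis and Myh1 plus Myh2 on the vertical axis, both on a log scale of UMIs plus 1, with a small jitter. Coloured points are the selected nuclei and grey points the Myh4 nuclei that pass the same limits with more Myh4. In AHRmKO most selected nuclei stand at 0 Myh4 UMIs around a median of 24, and in AHRfl/fl they spread from the limit of 2 around a median of 7.

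The label of adult fibre nuclei held in AHRmKO but not for most of the AHRfl/fl nuclei. Ncam1, an adhesion molecule of developing, regenerating and denervated fibres, stood at 4733 CPM in AHRfl/fl and 992 in AHRmKO. Myh8, the perinatal myosin, stood at 766 and 60.7, and Chrna1, an acetylcholine receptor subunit spread over immature fibres, at 333 and 46.9. Ncam1, Runx1, a transcription factor induced in regenerating and denervated fibres, and Dclk1, a microtubule-associated kinase, together took a median of 1.223% of a nucleus's UMIs in AHRfl/fl and 0.0809% in AHRmKO. In nuclei left out for Myh3 at 0.1% or more, here called Myh3-high fibre nuclei, the medians were 1.693% and 1.415%. In the Myh4 nuclei they were 0.470% and 0.0953%. The AHRfl/fl nuclei therefore lay near the immature nuclei on these genes, and the AHRmKO nuclei near the Myh4 nuclei. Free RNA held immature genes too: 5 markers, Myh3 and Myh8 among them, stood at 6645 and 843 CPM there, against 2310 and 418 in the nuclei. At least 1 Ncam1 UMI was found in 97.9% and 58.1% of the selected nuclei and in 47.6% and 51.5% of leukocyte barcodes. How far free RNA entered the share of the 3 genes was not tested.

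A limit of 0.2% on these 3 genes, set after the values had been seen, separated 14 of 242 AHRfl/fl nuclei (5.79%, Clopper-Pearson interval 3.20% to 9.52%) from 173 of 217 AHRmKO nuclei (79.7%, 73.8% to 84.9%) that were under it. It is a range and not a type: 9 and 38 of the selected nuclei lay at 0.1% to under 0.2%, and 6 and 10 at 0.2% to under 0.3%. No Myh3 UMI at all was found in 13 AHRfl/fl nuclei (5.37%) and in 166 AHRmKO nuclei (76.5%). Over all genes with at least 100 UMIs, 251 of 10293 genes (2.44%) stood 2-fold or more from the Myh3-high fibre nuclei in AHRfl/fl, and 2291 of 7910 (29.0%) in AHRmKO. Gene list medians and several leading genes are therefore also given for the nuclei at or above 0.2%, of which there were 228 and 44. Under 0.2% the AHRfl/fl side holds 14 nuclei only. As a description of the rule's own genes, Myh1 stood at 1802 and 1881 CPM at or above 0.2% (log2 ratio 0.06, -0.08 to 0.21) and at 2106 and 7834 under it (1.90), and Ttn at 16457 and 30045 at or above it (0.87).

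**Figure D2:**
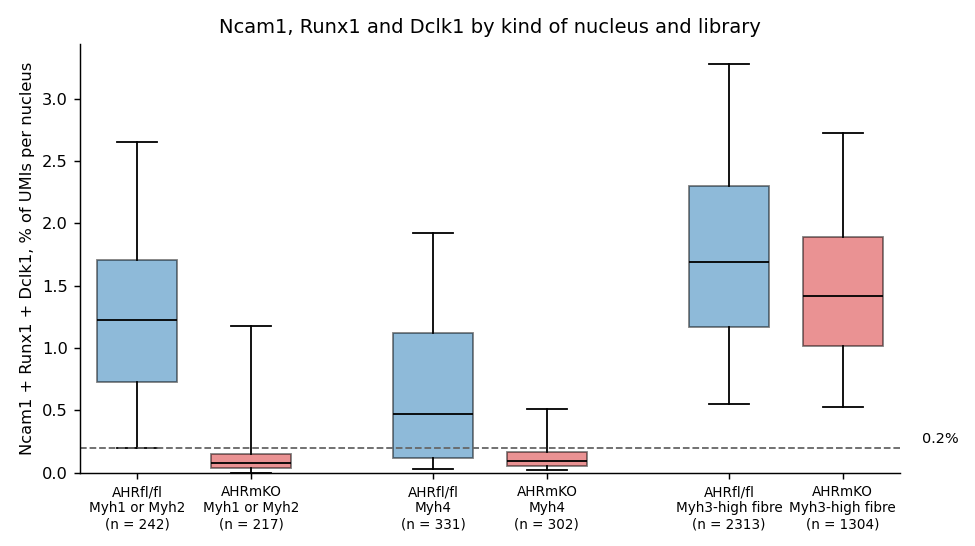
Share of a nucleus's UMIs in Ncam1, Runx1 and Dclk1, in percent, for 3 kinds of fibre nuclei in the 2 libraries. Boxes show the quartiles, the line the median and whiskers the percentiles 5 and 95; the dashed line is 0.2%. The AHRfl/fl Myh1 or Myh2 nuclei (median 1.223%) stand near the Myh3-high nuclei, and the AHRmKO ones (0.0809%) near the Myh4 nuclei.

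The share of the nuclei among adult-gated fast nuclei was close in the libraries over all nuclei, while under the 0.2% limit it was lower in the AHRfl/fl library. They were 242 of 573 (42.2%, 38.2% to 46.4%) in AHRfl/fl and 217 of 519 (41.8%, 37.5% to 46.2%) in AHRmKO, counting Myh1 or Myh2 nuclei and Myh4 nuclei together. A further 502 of 1075 and 360 of 879 gated nuclei held too few UMIs of these myosins to be placed in either kind. They are left out of the shares. Under the 0.2% limit the Myh1 or Myh2 nuclei were 14 of 126 (11.1%, 6.21% to 17.9%) and 173 of 425 (40.7%, 36% to 45.5%). The intervals count nuclei of 1 library each, under a limit set after the values were seen, and do not compare the groups. How far library quality, the sampled region and genotype each enter this share cannot be told apart with 1 library a group.

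Within AHRmKO, where the label held, the nuclei under the 0.2% limit had higher levels of many oxidative metabolism genes than the Myh4 nuclei of the same library under the same limit (173 against 252 nuclei). Of 9065 genes counted, with at least 10 UMIs and without the 3 fast myosins, 536 (5.91%) were 2-fold or more higher and 1010 (11.1%) 2-fold or more lower. The median over all of them was a log2 ratio of -0.07. Of 27 fatty acid oxidation and oxidative fibre genes, 15 were 2-fold or more higher and 1 lower, with a median of 1.11. Of 54 nuclear-encoded respiratory chain genes, 15 were higher and 0 lower, with a median of 0.77. With all selected and all Myh4 nuclei kept, the medians of these lists were 0.83 and 0.55 in AHRmKO. In AHRfl/fl, where most selected nuclei were at or above the limit, they were 0.03 and 0.01, so the difference was not seen there.

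Regulators of oxidative metabolism were among them. Ppara, a nuclear receptor that drives fatty acid use, stood at 449 CPM against 49.1 in the Myh4 nuclei, a log2 ratio of 3.18 (2.72 to 3.70). Esrrb, an oestrogen-related receptor, was counted 41 times against 1, and its relative Esrrg stood at 914 against 278 (log2 ratio 1.72). Ppargc1a, the coactivator of mitochondrial biogenesis, stood at 563 against 231 (1.28), and Perm1, which it induces, at 62.8 against 10.5 (2.52). Each of these regulators was higher in the Myh1 or Myh2 nuclei beyond its counting interval.

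Genes of fuel and oxygen use went the same way. Cd36, a fatty acid transporter, stood at 600 against 134 CPM (log2 ratio 2.16), and Lpl, lipoprotein lipase, at 306 against 75.9 (2.00). Mb, the oxygen store myoglobin, stood at 183 against 35 (2.37), and Ckmt2, the mitochondrial creatine kinase of muscle, at 1049 against 213 (2.30). Ldhb, the lactate dehydrogenase subunit of oxidative tissue, was counted 26 times against 3. Ucp3, an uncoupling protein homologue, was the member below 2-fold on the other side, at -1.06.

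As lists, sarcomere genes had median ratios to Myh4 nuclei near 0. Of 22 fast sarcomere genes 3 were 2-fold or more higher and 2 lower (median 0.01), against 5.91% and 11.1% of all genes, and of 4 slow sarcomere genes 0 passed 2-fold (median -0.09). Single members did: Actn3, the alpha-actinin of fast glycolytic fibres, stood at 235 CPM against 1134 (log2 ratio -2.27), while Actn2, its slower counterpart, stood at 1138 against 300 (1.92). Mybpc2, the fast myosin-binding protein, stood at 93.3 against 290 (-1.63). Myoz2, calsarcin of slow and oxidative fibres, was counted 26 times against 0. Of 22 calcium genes 1 was higher, Casq2, the slow and cardiac calsequestrin (log2 ratio 2.01), and 3 were lower (median -0.32). The 3 were Mrln (-2.14), Cacng1 (-2.02) and Pvalb, the calcium buffer of glycolytic fibres (-1.59). The calcium pumps stayed within 2-fold, Atp2a1, the fast one, at 0.20 and Atp2a2, the slow one, at -0.40. Of 26 glycolysis and glycogen genes 3 were higher and 2 lower (median -0.07). Pfkfb1, listed with Actn3 and Mybpc2 among the IIb fibre markers, was the highest of them (1.31), opposite to Actn3 and Mybpc2.

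Genes chosen by size alone, a rule added after the data had been seen (the 20 highest and 20 lowest ratios with at least 50 UMIs on the higher side), gave further genes. Agbl1, a carboxypeptidase that trims glutamate chains, stood at 6164 CPM against 516 (log2 ratio 3.58, 3.44 to 3.72). Ankrd2, a stretch-responsive ankyrin repeat protein, stood at 90.1 against 7.01 (3.59), Tbc1d4, a regulator of glucose transporter traffic, at 418 against 46.7 (3.15), and Fhl1, a LIM-domain protein of the sarcomere, at 575 against 68.9 (3.05). Oxct1, which opens the oxidation of ketone bodies, stood at 296 against 61.9 (2.25). At the other end stood Igfn1, a Z-disc protein counted 5 times against 225 (-4.95), and Slc2a3, a glucose transporter counted 3 times against 64 (-3.82). Gadd45a, a stress gene of atrophying muscle, stood at 12.9 against 114 (-3.10), and the early response gene Egr1 at 16.1 against 135 (-3.03).

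The matching AHRfl/fl values rest on 14 and 112 nuclei. There Ankrd2 stood at 308 against 25 CPM and Fhl1 at 454 against 175, the same direction as in AHRmKO. Agbl1 stood at 243 against 707, the opposite direction to AHRmKO. Ptpn3, a tyrosine phosphatase, Ppara and Ckmt2 were each counted 1 time in the 14 nuclei, too few to give a direction. Oxct1 was counted 0 times against 30, and Gadd45a stood at 324 against 194 (log2 ratio 0.74, -0.03 to 1.44), where in AHRmKO it was lower. Igfn1 was counted 0 times against 103, the direction of AHRmKO. Slc2a3 was counted 0 against 27 times, Tbc1d4 1 against 7 and Egr1 1 against 4, all with intervals that span 0. Of the other lists in AHRmKO, 5 of 8 myotendinous junction genes and 8 of 17 early response genes were 2-fold or more lower and 0 higher, against 11.1% lower over all genes, with medians of -1.76 and -0.74. Of 21 denervation and neuromuscular junction genes 6 were lower and 3 higher, the latter Dach2, Erbb3 and Lrp4 (median -0.42).

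**Figure D3:**
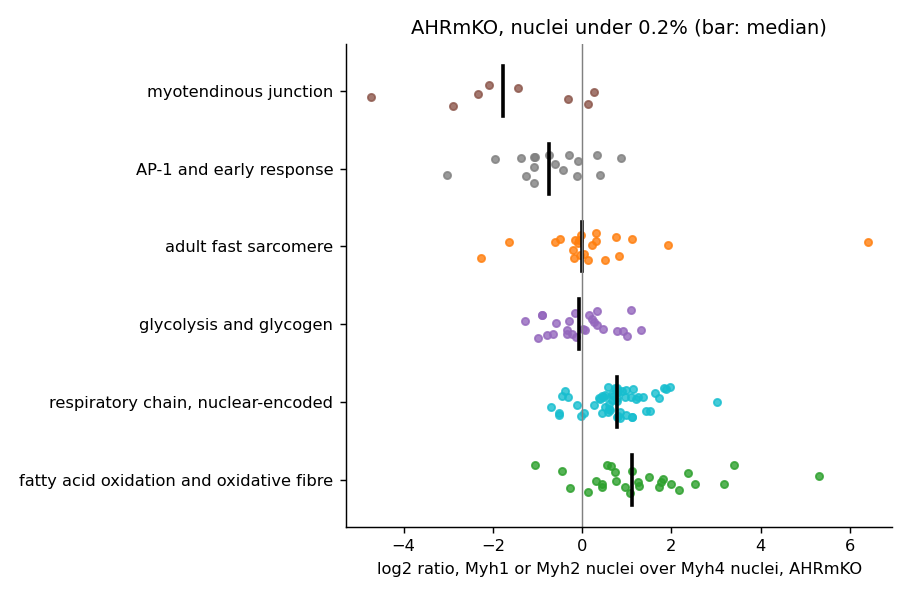
Log2 ratios of the Myh1 or Myh2 nuclei over the Myh4 nuclei within AHRmKO, both under 0.2% of Ncam1, Runx1 and Dclk1. Each point is a gene of the list named at the left with at least 10 UMIs, the bar its median; the oxidative fibre list (median 1.11) and the respiratory chain (0.77) stand to the right of 0, and the junction genes (-1.76) and early response genes (-0.74) to the left.

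With all selected nuclei kept, each library had its own differences from the Myh4 nuclei, some of them shared. In AHRfl/fl 712 of 10108 genes (7.04%) stood 2-fold or more from the Myh4 nuclei, 278 higher and 434 lower, and in AHRmKO 1368 (13.5%), 814 higher and 554 lower. Past 2-fold the same way in both were 57 genes (0.564%) on the higher side and 98 (0.970%) on the lower. The 57 were 20.5% of the higher genes of AHRfl/fl and 7% of those of AHRmKO, and the 98 were 22.6% and 17.7% of the lower genes. By the naming rule the highest were Dqx1, Folr1, Rbm12b1, Megf10, Asap3, Tmtc2, Creb3l1 and Nek10. Megf10, a receptor of satellite cells and myoblasts, stood at 186 against 68.4 CPM in AHRfl/fl and 62.9 against 16.1 in AHRmKO. Dqx1, a DEAQ-box helicase gene, stood at 113 against 26.4 and 34.3 against 4.73. Among AHRmKO nuclei under 0.2% these genes were counted 10 against 8 times and 1 against 1 time, so their distance from Myh4 nuclei in that library rested on the nuclei at or above the limit.

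Genes at the lower end included Odf3l2, Tekt1, Hhipl1, Smtnl2, Npr3, Mstn and Slc16a9. Smtnl2, a smoothelin-like protein, stood at 14.3 against 59.2 CPM in AHRfl/fl and 21.7 against 95.4 in AHRmKO (log2 ratios -2.01 and -2.11). Npr3, the natriuretic peptide clearance receptor, stood at 9.77 against 67.2 and 16.0 against 64.3. Mstn, myostatin, which limits muscle growth and is made mostly by IIb fibres, stood at 4.51 against 19.0 and 4.58 against 26.5. All 3 were also more than 2-fold lower among AHRmKO nuclei under 0.2% (-1.84, -1.73 and -2.15). In the 14 AHRfl/fl nuclei under 0.2% none was: Smtnl2 stood at 194 against 140, Npr3 at 162 against 146 and Mstn at 48.6 against 53.8.

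Within the AHRmKO nuclei a small set held more Myh2 than Myh1. The 16 Myh2-led nuclei summed to 58055 UMIs and the 201 Myh1-led to 815784, with medians of 3483.5 and 3368 UMIs per nucleus. Genes named here were chosen after their values were seen. Fabp4, a fatty acid carrier of adipocytes and endothelium, stood at 1068 against 28.2 CPM, Lpl at 741 against 196 and Tbc1d4 at 741 against 303. Tmsb4x, an actin-binding peptide abundant in leukocytes and endothelium, stood at 861 against 110, and Vim, the filament of mesenchymal cells, at 586 against 241; their part in the Fabp4 and Lpl values was not tested. Runx1 stood at 448 against 1753 and Ncam1 at 241 against 1046, but 43 of the Myh1-led nuclei and 1 of the Myh2-led were at or above 0.2%. Over all AHRmKO nuclei under 0.2%, a limit set on these same genes, Runx1 stood at 309 and Ncam1 at 172. The Myh2-led values rest on 26 and 14 UMIs and include the nucleus at or above the limit, so these sets are not alike. Both Myh1 and Myh2 reached 2 UMIs in 23 of the 217 AHRmKO nuclei and 1 of the 242 AHRfl/fl nuclei. How these 16 nuclei spread over animals is not given.

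Between the libraries the nuclei differed in many genes. Of 11868 genes with at least 10 UMIs, 1389 (11.7%) were 2-fold or more higher in AHRmKO and 3098 (26.1%) 2-fold or more lower, with a median log2 ratio of -0.22. The higher genes were thus 31% of those past 2-fold, and 42.6% with all ratios centred on their median (1896 higher and 2550 lower). The balance turned in the nuclei with no Myh3 UMI, with 1972 higher and 1643 lower, and in those under 0.2%, with 1814 and 1470. These settings keep 13 and 14 AHRfl/fl nuclei, and under 0.2% those sum to 61736 UMIs against 621355 in AHRmKO. A gene with 0 AHRfl/fl counts can then pass 2-fold on few AHRmKO counts, and how far depth set the balance was not tested. Of the genes past 2-fold over all nuclei, 1090 higher and 2996 lower genes could also be counted in the nuclei at or above 0.2%, where 648 (59.4%) and 1667 (55.6%) were still past 2-fold the same way and 124 and 313 had the other sign. Predicted gene models made up 668 of the lower genes (21.6%) and 107 of the higher (7.70%). Ahr, the targeted gene, was counted 31 times in AHRfl/fl and 3 times in AHRmKO, which is 23.3 and 3.43 CPM and a log2 ratio of -2.60 (-5.12 to -1.08). All 31 AHRfl/fl counts came from nuclei at or above 0.2%, where Ahr stood at 24.4 and 7.92 CPM with 2 AHRmKO counts, that is -1.57 on the log2 scale (-4.73 to 0.35, an interval that spans 0). Under that limit, with 0 and 1 counts, no difference could be read. Counts are summed over the whole gene, so the deletion itself was not checked in either range. In free RNA Ahr stood at 18.5 and 20.1 CPM.

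Vegfa, the main growth factor for blood vessels, was far higher in AHRmKO. Vegfa was counted 38 times in AHRfl/fl and 996 times in AHRmKO, or 28.5 and 1140 CPM, a log2 ratio of 5.29 (4.85 to 5.83). After thinning every nucleus to 2000 UMIs, 7.02% (4.15% to 11.0%) and 77% (70.8% to 82.4%) of the nuclei held a Vegfa UMI, against 13.2% and 84.3% unthinned and 4.21% and 5.02% of leukocyte barcodes. Free RNA held 19.1 and 40.1 CPM. Vegfa also differed in Myh4 nuclei, at 51.7 and 493, and stood at 21.9 and 34.8 in Myh3-high nuclei. In the selected nuclei at or above 0.2% Vegfa stood at 26.0 and 182 (log2 ratio 2.79, 2.13 to 3.50), and under it at 81.0 and 1529. Within AHRmKO Vegfa in nuclei under the limit was 1529 against 543 in Myh4 nuclei (1.49, 1.33 to 1.66).

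**Figure D4:**
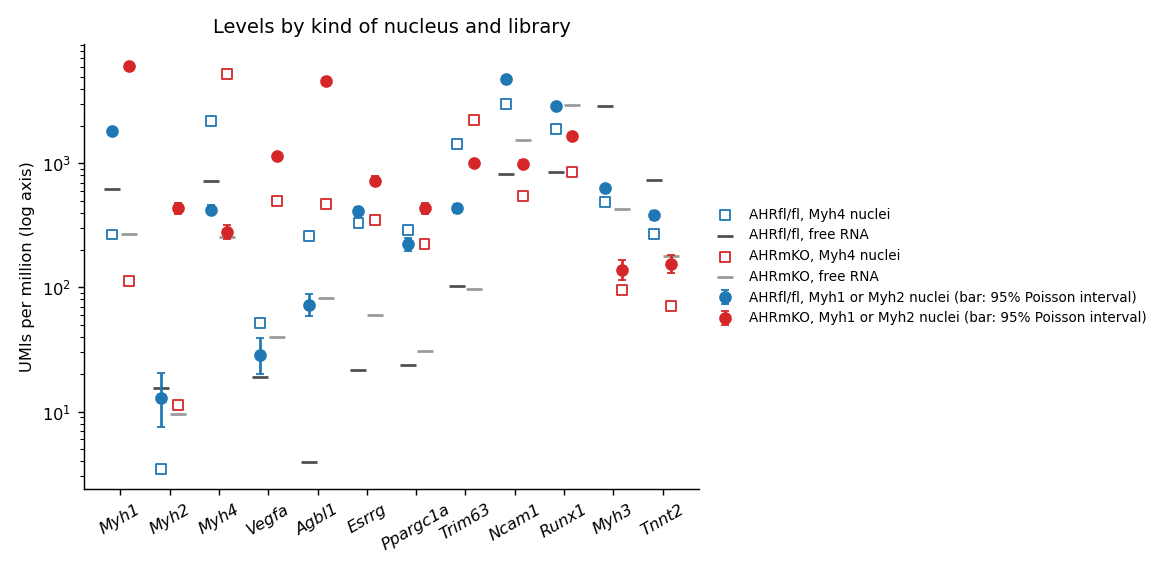
CPM (log axis) of 12 genes in the Myh1 or Myh2 nuclei (filled circles with 95% Poisson intervals), the Myh4 nuclei (open squares) and free RNA (dashes) of each library. Vegfa stood at 28.5 and 1140 and Agbl1 at 72.1 and 4560 in the selected nuclei of AHRfl/fl and AHRmKO, while Ncam1 stood at 4733 and 992.

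Of the 12 genes highest in AHRmKO by the naming rule, 7 were within 2-fold of their level in the Myh4 nuclei of that library. Agbl1 stood at 72.1 and 4560 CPM (log2 ratio 5.97, 5.69 to 6.29) and Hs3st5, a heparan sulphate sulphotransferase, at 4.51 and 936 (7.55). Ddo, D-aspartate oxidase, was counted 0 and 96 times (48.7-fold higher with 3 counts in place of 0). Slc38a3, a glutamine transporter, stood at 5.26 and 541, Aldh1a1, a retinaldehyde dehydrogenase, at 20.3 and 1016, and Padi2, a peptidylarginine deiminase, at 4.51 and 292. Mlf1, Slc15a5, Cntfr, Pfkfb1 and Synpo also belonged to the 12, with log2 ratios from 5.39 to 6.40. Agbl1 stood at 473 in AHRmKO Myh4 nuclei against 4560 here.

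For Agbl1 and Aldh1a1 the ratios were smaller within each range of the immature genes than over all nuclei. At or above 0.2%, Agbl1 stood at 63.8 and 614 CPM (log2 ratio 3.26, 2.87 to 3.67) and Aldh1a1 at 7.88 and 87.1 (3.39). Hs3st5 was counted 0 and 24 times there. Under the limit the ratios for Agbl1 and Aldh1a1 were 4.66 and 2.34, from 15 and 17 AHRfl/fl counts.

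Of the 12 genes lowest in AHRmKO, 10 overlap a gene on the other strand. Lysmd4, a LysM-domain gene annotated on the strand opposite Mef2a, stood at 986 and 12.6 CPM (log2 ratio -6.24), Dnajc19, opposite Fxr1, at 247 and 3.43, and Lrrc4, opposite Snd1, at 231 and 8.01. Sorbs2os, Rsf1os1, Rsf1os2 and Ube4bos1 are antisense transcripts, and Lrrtm3 and Agrp lie opposite Ctnna3 and Ctcf. How strand entered the counts is not given in the sources used here, so these reads cannot be assigned to a strand with certainty. Other fibre nuclei differed too: Lysmd4 stood at 832 and 18.9 in Myh4 nuclei and at 1281 and 18.4 in Myh3-high nuclei. Bfsp2, a lens filament gene that lies opposite the gene model 5830418P13Rik, was counted 175 and 0 times (38.3-fold lower with 3 counts in place of 0). Bex1, an adaptor of regenerating muscle, was counted 103 and 0 times (22.5-fold lower in the same way). Glis1, a zinc finger gene, stood at 75.1 and 3.43, against 91.8 and 57.5 in Myh3-high nuclei.

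Adult fast sarcomere genes were more often higher than lower in AHRmKO, and slow and immature fibre genes were lower. Of 25 adult fast sarcomere genes, which include the rule's own Myh1, Myh2, Myh4, Ttn and Neb, 11 were 2-fold or more higher (44%, against 11.7% of all genes) and 4 lower (16%, against 26.1%), with a median log2 ratio of 0.84 against -0.22. Without those 5 genes, 8 of 20 were higher and 4 lower (median 0.76). Tcap, the titin cap, stood at 30.8 and 379 CPM, and Mylpf, the fast regulatory light chain, at 740 and 90.4. All 5 slow sarcomere genes counted were lower (median -1.80), among them Tnnt1, slow troponin T, at 178 and 66.4 (but at 181 and 194 at or above 0.2%). Of 17 immature and regenerating fibre genes 13 were lower (76.5%) and 0 higher (median -2.18), and without Myh3 12 of 16 were lower (median -2.21). Mymx, a membrane fusion micropeptide, stood at 49.6 and 2.29. Among nuclei at or above 0.2% the 3 medians were -0.14, -0.35 and -0.82, against 0.08 for all genes. Ncam1, on which that limit was set, belongs to the immature list and was not left out. Over all Myh4 nuclei the 3 medians between the libraries were 0.8, -2.69 and -2.3. These differences were thus not particular to the selected nuclei. Free RNA differed as well, with medians of -0.68 for the fast, -2.56 for the slow and -2.84 for the immature list. Under the 22 alternatives, free RNA subtraction among them, the slow median ran from -2.81 to -0.35 and the immature from -5.26 to -0.82.

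Genes of the nerve end of the fibre passed 2-fold in both directions more often than all genes did, and those of the tendon end were lower in AHRmKO. Of 23 denervation and neuromuscular junction genes 10 were lower (43.5%, against 26.1% of all genes) and 5 higher (21.7%, against 11.7%), with a median of -0.79. Chrnd, an acetylcholine receptor subunit, stood at 99.2 and 17.2 CPM, and Scn4a, the adult muscle sodium channel, at 39.1 and 190. Dach2, a repressor gene linked to denervation, was counted 0 and 31 times (15.7-fold higher with 3 counts in place of 0). Nuclei under 0.2% gave 30 of those 31 counts. All 7 myotendinous junction genes counted were lower (median -1.94), among them Sorbs2, a Z-disc adaptor, at 612 and 121 and Col22a1, the junction collagen, counted 8 and 2 times. Under 0.2% Sorbs2 was close in the libraries, at 81.0 and 72.4, from 5 AHRfl/fl counts. Over all Myh4 nuclei the medians of the denervation and the myotendinous list were -1.13 and -1.21. In the selected nuclei at or above 0.2% they were 0.18 and -0.85. Ncam1 and Runx1, on which that limit was set, belong to the denervation list and were not left out.

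Fatty acid oxidation and glycolysis genes were more often higher than lower in AHRmKO, and respiratory chain genes passed 2-fold on the lower side at about the share of all genes. Of 28 fatty acid oxidation and oxidative fibre genes 9 were higher (32.1%) and 0 lower (median 0.77). Cd36 stood at 43.6 and 454 CPM and Perm1 at 0.751 and 49.2, while Ppargc1a stood at 222 and 433 (log2 ratio 0.96) and Esrrg at 411 and 726 (0.82). Of 26 glycolysis and glycogen genes 12 were higher (46.2%) and 3 lower (11.5%), with a median of 0.88. Ppp1r3a, which anchors a phosphatase to glycogen, stood at 63.9 and 940, and Gapdh at 207 and 57.2. Of 56 respiratory chain genes 1 was higher (1.79%, against 11.7% of all genes) and 17 were lower (30.4%, against 26.1%), with a median of -0.47. The same list had a median of -2.89 in free RNA, and with free RNA of 200 to under 500 UMIs subtracted its median in the nuclei turned to 1.82 (1.24 with that free RNA scaled on macrophage and fibroblast markers alone). Over all Myh4 nuclei the medians of the fatty acid, glycolysis and respiratory chain lists were 0.02, 0.75 and -1.06. For the selected nuclei at or above 0.2% the 3 medians were 0.10, 0.05 and -0.88. Ppargc1a and Esrrg were then lower in AHRmKO (-1.05 and -0.68).

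**Figure D5:**
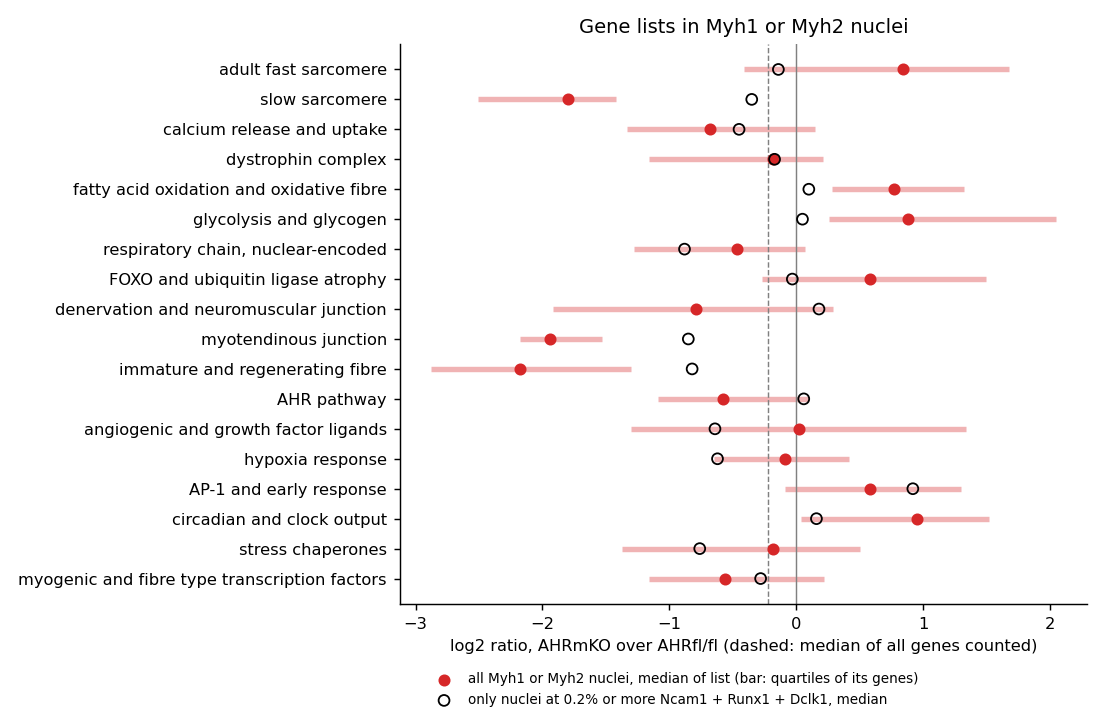
Median log2 ratio of AHRmKO over AHRfl/fl for 18 gene lists in the Myh1 or Myh2 nuclei (filled, with the quartiles of the list's genes as a bar), and the median over only the nuclei at or above 0.2% of Ncam1, Runx1 and Dclk1 (open). The dashed line is the median of all genes counted, -0.22. Among the nuclei at or above 0.2% the fast sarcomere, fatty acid, glycolysis and immature lists stood closer to 0, and the respiratory chain list farther from it. The immature list holds Ncam1 and the denervation list Ncam1 and Runx1, genes on which the limit was set.

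Atrophy genes were more often higher than lower over all nuclei, but the leading ubiquitin ligases turned under 0.2%. Of 38 FOXO and ubiquitin ligase genes 16 were higher (42.1%, against 11.7% of all genes) and 6 lower (15.8%, against 26.1%; median 0.58, but -0.41 under 0.2% and -0.03 at or above it). Trim63 and Fbxo32, the ubiquitin ligases MuRF1 and atrogin-1, stood at 433 and 998 and at 203 and 815 CPM (log2 ratios 1.20 and 2.00). Foxo1, their activator, stood at 159 and 763, but at 91.4 and 95.1 at or above 0.2% and at 1539 and 1035 under it, so that it too turned (-0.57, -0.89 to -0.25). Klf15, a glucocorticoid target, stood at 1.5 and 36.6. Mt1 and Mt2, metallothioneins, were lower, at 70.6 and 9.16 and at 48.8 and 4.58. Under 0.2%, Trim63 stood at 4924 and 1302 and Fbxo32 at 3207 and 1099, so that the direction turned (log2 ratios -1.92 and -1.54), with 304 and 198 UMIs from 14 AHRfl/fl nuclei. Trim63 and Fbxo32 were closer in nuclei at or above 0.2%, where Trim63 stood at 215 and 250 and Fbxo32 at 56.7 and 115. Over all Myh4 nuclei the median of the FOXO and ubiquitin ligase list was 0.31.

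Calcium handling and membrane genes went both ways. Of 23 calcium genes 2 were higher (8.70%) and 7 lower (30.4%), near the 11.7% and 26.1% of all genes (median -0.68), and without Trdn, a gene of the rule, 9.09% and 31.8% of 22. Atp2a1, the fast calcium pump, stood at 1165 and 4347 CPM (log2 ratio 1.90) and Atp2a2, the slow and cardiac pump, at 439 and 140 (-1.65), and Casq2 at 491 and 88.1. For the pumps the ratios at or above 0.2% were 0.58 and -0.13 (-0.44 to 0.17), the latter with an interval that spans 0. Pvalb stood at 19.5 and 76.7, but its ratio turned to -0.33 under 0.2% and to -0.25 at or above it. Of 17 dystrophin complex genes 2 were higher (11.8%) and 5 lower (29.4%), also near those shares (median -0.18), and without Dmd, also of the rule, 12.5% and 31.2% of 16. Nos1, the nitric oxide synthase bound to the complex, stood at 71.4 and 319, but was close in the libraries within each range, at 55.9 and 59.4 at or above 0.2% and 389 and 425 under it. Lama2, the laminin chain outside the fibre, stood at 1382 and 360 (log2 ratio -1.94, and -0.46 at or above 0.2%). At or above 0.2% the medians were -0.45 and -0.17.

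AHR pathway genes passed 2-fold at about the share of all genes on the lower side. Of 11 counted, 3 were lower (27.3%, against 26.1% of all genes) and 0 higher, with a median of -0.58 over all nuclei and 0.06 at or above 0.2%. Arnt stood at 160 and 228 CPM and Tiparp, a target and repressor, at 78.1 and 104. The classical targets were at the limit of detection in both libraries: Cyp1a1 was counted 0 and 0 times, Cyp1b1 2 and 0, Ahrr 0 and 2 and Nqo1 3 and 6. With 3 counts in place of 0, the floor stood at 2.25 CPM in AHRfl/fl and 3.43 in AHRmKO. Hsp90ab1, the chaperone that holds AHR in the cytoplasm, stood at 226 and 51.5.

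Growth factors and hypoxia genes went both ways as lists. Of 25 angiogenic and growth factor ligands 8 were higher (32%) and 9 lower (36%), against 11.7% and 26.1% of all genes (median 0.02). Fgf1 stood at 20.3 and 177 CPM and Vegfb at 26.3 and 43.5 (turning to a log2 ratio of -0.78 at or above 0.2%), while Nrg1, neuregulin, stood at 71.4 and 6.87. Angpt2, which destabilises vessels and lies opposite Mcph1, was counted 64 and 0 times (14.0-fold lower with 3 counts in place of 0). Of 20 hypoxia genes 3 were higher and 3 lower, which is 15% each way (median -0.09). Epas1, the factor HIF-2 alpha, stood at 3 and 68.7 and Egln1, the oxygen sensor that marks it for degradation, at 25.5 and 85.8, while Kdm3a, a hypoxia-induced demethylase, stood at 131 and 46.9. At or above 0.2% the medians were -0.64 and -0.62.

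Early response and clock genes were more often higher than lower in AHRmKO. Of 21 early response genes 7 were higher (33.3%, against 11.7% of all genes) and 3 lower (14.3%, against 26.1%), with a median of 0.58. Fos was counted 5 and 52 times (3.76 and 59.5 CPM), and free RNA held 33.6 and 158 and so also differed. The early response list as a whole had a median of -0.35 in free RNA, the other direction. Over all Myh4 nuclei its median was 0.4. The list's median at or above 0.2% was 0.92. Of 17 clock genes 8 were higher (47.1%, against 11.7% of all genes) and 0 lower (0%, against 26.1%), with a median of 0.95. Nr1d2, a repressor of the clock, stood at 68.4 and 358. The clock median was 0.16 at or above 0.2%, 0.82 over all Myh4 nuclei and 0.5 in free RNA. The hour at which the muscles were taken is not given. Of 15 stress chaperones 2 were higher (13.3%) and 7 lower (46.7%), with a median of -0.18, close to the -0.22 of all genes, and of -0.76 at or above 0.2%. In free RNA that list had a median of -1.96. Hspb1, a small heat shock protein, stood at 55.6 and 3.43. Of 28 myogenic and fibre type factors 5 were higher (17.9%) and 8 lower (28.6%), against 11.7% and 26.1% of all genes, with a median of -0.56 and of -0.28 at or above 0.2%. Among them were Nfatc1, the calcineurin target, at 15.8 and 74.4 and Myog, myogenin, at 131 and 28.6.

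Markers of other cell types were present in the selected nuclei, and the Ptprc, Pdgfra and Pax7 limits hold down only those genes. The 12 macrophage markers summed to 1148 CPM in AHRfl/fl and 348 in AHRmKO, against 8062 and 2068 in free RNA. The 9 fibroblast markers summed to 677 and 231 against 4320 and 1237. Across 62 non-fibre markers the nuclei stood at 2417 and 1281, which is 18.6% and 35.9% of the free RNA level. With barcodes of at most 100 UMIs taken as free RNA instead, the shares were close, at 26.8% and 28.2%. Of free RNA of 200 to under 500 UMIs, the shares on the macrophage and fibroblast markers alone, 19 that are not in the rule, were 15% and 18.4%. Endothelial markers stood at 63.9 and 59.5 against 84.9 and 113. In AHRmKO 3 classes were at or above free RNA, 2 of them among the 62 markers. Adipocyte markers stood at 67.6 and 314 against 74.6 and 96.8, led by Plin4 in AHRmKO, with Lep at 0, and at 387 in AHRmKO Myh4 nuclei. Pericyte and smooth muscle markers stood at 454 and 336 against 750 and 323. Erythroid markers stood at 157 and 2788 against 1385 and 560, nearly all from the nucleus with 2389 haemoglobin UMIs. The Schwann cell gene Sox10 was at 0 in both libraries. With free RNA of 200 to under 500 UMIs subtracted, the log2 ratio between the libraries was 5.67 for Vegfa and 6.18 for Agbl1.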

How the data were processed

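Single-nucleus libraries from 2 groups were sequenced, 1 library a group. The deposited matrices hold counts of UMIs per gene and barcode, which the authors made with Cell Ranger 7.0.1 on mm10, per the submitters' processing notes, while the matrix header names Cell Ranger 4, per the file headers. Whether introns and read strand entered the counting is not given in the sources used here.

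From the counts, barcodes were selected by the rule given above, UMIs were summed per library and kind of nucleus and scaled to 1000000 (CPM), and log2 ratios were taken with 0.5 CPM added. Genes with at least 10 UMIs were compared, and 2-fold was the threshold. Intervals are exact conditional binomial for ratios, exact Poisson for levels and Clopper-Pearson for shares, at 95%. There is no test between groups. The ratio and interval code was checked on simulated counts for AHRmKO over AHRfl/fl: over 11606 genes, 96.8% of intervals held the true ratio. Doublets were called with scanpy and left out as an alternative only. Thinning drew 2000 UMIs per nucleus.

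The members, the 18 gene lists and the marker lists were chosen with earlier results of these data known. Named genes were always-named genes, the 12 highest and 12 lowest ratios between libraries and the 8 at each end against Myh4 nuclei, without predicted models, mitochondrial, ribosomal, haemoglobin, sex-linked or rule genes, and list members; a few genes are not reported here. Python 3.11.15, numpy 2.4.6, pandas 2.3.3, scipy 1.17.1, scanpy 1.11.5 and matplotlib 3.10.9 were used. Replicate spread could not be measured, and the depth per library is given above. The alternatives were 18 fixed first and 4 chosen after seeing the data.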

Additional observations from a re-analysis of the deposited data

Results flagged for a closer look

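For 3 genes the Myh1 or Myh2 nuclei stood below the Myh4 nuclei in AHRfl/fl and above them in AHRmKO, each past 2-fold and with both counting intervals clear of 0. Agbl1 had log2 ratios of -1.84 in AHRfl/fl and 3.27 in AHRmKO. At or above 0.2% of Ncam1, Runx1 and Dclk1, which holds 228 of the 242 AHRfl/fl nuclei, Agbl1 stood at 63.8 CPM against 69.7 in Myh4 nuclei, and under it, where 14 nuclei face 112, at 243 against 707. Pfkfb1, which makes and breaks down a regulator of glycolysis and lies opposite Apex2, had -1.45 and 1.12. Cntfr, a receptor subunit for ciliary neurotrophic factor, had -2.71 and 1.02, from 2 UMIs in the AHRfl/fl nuclei. In AHRfl/fl at or above 0.2%, Cntfr stood at 1.58 CPM against 1.64 in Myh4 nuclei, close to each other, and Pfkfb1 was counted 5 against 10 times. Padi2 was also past 2-fold both ways (-1.26 and 1.74), but its AHRfl/fl interval, -2.96 to 0.02, spans 0. With 1 library a group the difference was not tested.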

How the results depend on the processing

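The main limits are 1 library a group, medians of 4966 and 3380 UMIs per nucleus, and AHRfl/fl nuclei close to the Myh3 limit. No paired analysis was possible because each group has 1 library. The values for 69 named genes were recomputed under 22 alternatives (18 fixed first, 4 chosen after seeing the data). Of these values 1233 stayed within the gene's main counting interval, 238 left it and 16 turned direction from 2-fold or more. Some of these 16 rest on counts of 0 and 1, as for Ahr and Dqx1 under 0.2%. Another 56 values, of 18 genes that were under 2-fold, also changed sign. The main interval is wide for genes with few UMIs, so a value within it can still have moved far: Nqo1 ran from 0.54 to 4.1 inside its own. Of 18 list medians 11 changed sign under some alternative, none of them from 2-fold or more, among them the respiratory chain (-0.47 to 1.82 with free RNA of 200 to under 500 UMIs subtracted), fast sarcomere (0.84 to -0.14 at or above 0.2%), FOXO (0.58 to -0.41 under 0.2%), denervation (-0.79 to 0.18 at or above 0.2%) and AHR pathway (-0.58 to 0.24 with that free RNA subtracted) lists.

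The 3098 genes lower in AHRmKO became 1643 among nuclei with no Myh3 UMI, 1802 with at least 30 UMIs a gene and 1470 under 0.2% of Ncam1, Runx1 and Dclk1. The 1389 higher genes became 1972, 951 and 1814 there, so that higher genes outnumbered lower ones in the first and last of these, and in no other alternative. That first and last setting keep 13 and 14 AHRfl/fl nuclei. The 57 genes above Myh4 nuclei in both libraries became 37 with fibre genes at 2% or more, 138 and 195 with free RNA of 200 to under 500 UMIs or of at most 100 UMIs subtracted, 141 with free RNA scaled on macrophage and fibroblast markers, 19 with 5 CPM added, 19 with 30 UMIs a gene, 37 under 0.2% and 33 at or above it. The 98 genes below became 58 with no Myh3 UMI, 52 with 5 CPM added, 49 with 30 UMIs a gene, 154 under 0.2% and 43 at or above it. The share of 42.2% in AHRfl/fl became 20.0% with no Myh3 UMI, 11.1% under 0.2% and 51.0% at or above it, and that of 41.8% in AHRmKO became 36.1% with a minimum of 1000 UMIs, 47.5% with 3000 and 46.8% at or above 0.2%.

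Of those 69 genes that were 2-fold or more apart, with no Myh3 UMI the log2 ratio between the libraries turned to 2.07 for Ahr, -1.56 for Trim63, -0.30 for Fbxo32, -0.09 for Pvalb, 6.55 for Dqx1, -0.01 for Rbm12b1 and 2.07 for Hhipl1. Under 0.2% it turned to 2.08 for Ahr, -1.92 for Trim63, -1.54 for Fbxo32, -0.33 for Pvalb, 2.08 for Dqx1, -0.99 for Rbm12b1, and 5.05 for Megf10. There Ahr and Dqx1 were each counted 0 times in AHRfl/fl and 1 time in AHRmKO, and Megf10 0 and 10 times. Their intervals span 0, with lower ends of -8.62 for Ahr and Dqx1 and -2.17 for Megf10. No direction could be read for these genes. At or above 0.2% the log2 ratio turned to -0.25 for Pvalb and 0.18 for Folr1, and, among genes under 2-fold, to -1.05 for Ppargc1a, -0.68 for Esrrg and -0.78 for Vegfb. These alternatives leave few AHRfl/fl or few AHRmKO nuclei, and the cause was not tested.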
